A study of Rattus norvegicus with 250 samples.

Results

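Aif1, Itgam, C1qa, Cd74 and Cx3cr1 are 5 genes used as markers of microglia and of antigen presentation, and their expression was followed across the hippocampus of F2 rats. They were taken by Ensembl gene ID from a list of 5, and all 5 IDs were among the 32883 genes of the count table. ENSRNOG00000019728 is paired with Itgam in the study's annotation tables, where 1 of the symbol columns lists it as Itgad, a neighboring integrin gene, so reads of close relatives may be counted in this row. No table used here pairs ID and symbol for the other 4, which are therefore given by ID with the symbol they were listed under: ENSRNOG00000000853 (Aif1), ENSRNOG00000012807 (C1qa), ENSRNOG00000018735 (Cd74) and ENSRNOG00000018509 (Cx3cr1). What is said below of their roles holds only if these symbols are right.

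Microglia are the resident macrophages of the brain and spinal cord, where they survey tissue, clear debris and trim synapses. Aif1 encodes IBA1, an actin-binding protein used to stain them, Itgam encodes CD11b, the alpha subunit of a complement receptor, and C1qa encodes a chain of C1q, which starts the classical complement cascade and tags synapses. Cx3cr1 encodes the receptor for fractalkine, a chemokine made by neurons. Cd74 encodes the invariant chain, which escorts MHC class II molecules to the compartment where peptides are loaded. In the healthy rodent brain MHC class II is sparse in the parenchyma and more common in cells of the meninges and choroid plexus.

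The rats were the second generation (F2) of an intercross between rat lines selectively bred for strong (bHR) or weak (bLR) exploratory locomotion, and 1 hippocampal polyA RNA library was made per rat. Of 250 libraries, 5 carried a failed quality control label and were left out, which left 122 males of 113 to 123 days and 123 females of 124 to 132 days, from 12 families of 13 to 27 rats. The rats died on 9 dates in December 2013, 6 with males and 3 with females, so sex, age and date of death cannot be told apart, and 208 rats had been trained in Pavlovian Conditioned Approach (PavCA) while 37 had not. Total counts ranged from 17.9 to 31.5 M (mega counts), every rat comes from the same cross with no founder line beside it, and rats of a family are not independent of each other.

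The promoter of Itgam is shown because Itgam was the gene of the 5 with the lowest p in the test of families given below. In the RefSeq promoter table (build GRCr8, 250 bases before to 50 bases after the start of the gene), entries were found for 4 of the 5 listed symbols, with none for Aif1. The 6-letter motif GAGGAA, which holds the GGAA core bound by ETS factors such as the myeloid factor PU.1, was looked for on both strands, and 27.6% of 33469 promoters of this length hold it. The Itgam promoter holds it 2 times and the Cd74 promoter 1 time, while those of C1qa and Cx3cr1 hold none. Both Itgam windows are printed on the plus strand of chromosome 1, at chr1:192089431-192089456 and chr1:192089543-192089568, with the motif or its reverse complement in capitals.
Itgam, motif starting 151 bases before the start: tgatgtcccaGAGGAAggctacacag
Itgam, motif starting 39 bases before the start: ctttagtggcTTCCTCaaagtgtttg
These matches describe the letters only, and nothing in these data bears on binding there.

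All 5 genes were read in every one of the 245 rats and passed the filter on low counts (at least 1 read in 25% of rats, 19448 genes). Levels are given as log2 CPM, the log2 of a gene's counts per mega counts of its library, and since the counts are not divided by gene length they are not compared between genes. Listed as Aif1, ENSRNOG00000000853 ranged from 3.49 over a median of 4.68 to 6.75 log2 CPM, on 202 to 1701 reads. Itgam ranged from 2.04 over 3.11 to 3.89 log2 CPM, on 68 to 360 reads. Listed as C1qa, ENSRNOG00000012807 had the narrowest range, from 5.01 over 5.85 to 6.57 log2 CPM, on 741 to 2099 reads. That of ENSRNOG00000018735, listed as Cd74, was the widest, from 1.31 over 3.45 to 5.66 log2 CPM, a 21.1-fold span in CPM on 50 to 1147 reads. Cx3cr1 reads (ENSRNOG00000018509) gave levels from 2.46 over 3.73 to 4.58 log2 CPM, on 99 to 559 reads. In bulk tissue, fewer cells of a type and less RNA per cell cannot be told apart.

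Much of this spread moved with 2 technical measures, the percentage of ribosomal reads and the intergenic percentage, the share of reads outside genes. Together they accounted for 93.3% of the variance in log2 CPM of the row listed as Aif1, 77.3% of that listed as Cx3cr1 and 64.3% of that listed as C1qa, but for 17.2% of Itgam and 9.05% of the row listed as Cd74. The SD over rats of ENSRNOG00000000853 (Aif1) was 0.76 log2 CPM, above that of 92.7% of genes tested, and 0.19 once the covariates of the model below were removed, above that of 39.1%. That of ENSRNOG00000018735 (Cd74) hardly shrank, from 0.67 to 0.64 log2 CPM, which put it above 95.5% of genes. The other SDs fell from 0.37 to 0.34 for Itgam, from 0.27 to 0.15 for ENSRNOG00000012807 (C1qa) and from 0.41 to 0.19 for ENSRNOG00000018509 (Cx3cr1).

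The intergenic percentage ran from 9.91% over a median of 13.3% to 17.3%, and the 5 genes did not follow it in the same direction. In the 82 rats with the lowest percentages, the row listed as Aif1 (ENSRNOG00000000853) lay between 4.89 and 6.75 with a median of 5.59 log2 CPM, and in the 82 rats with the highest it lay between 3.49 and 4.68 with a median of 4.00. The 2 groups did not overlap, though how many of all genes tested separate likewise was not counted. ENSRNOG00000018509 (Cx3cr1) went the other way, from a median of 3.24 (range 2.46 to 3.79) in the lowest to 4.06 (range 3.67 to 4.58) in the highest. The groups overlapped over a narrow band. Medians fell from 6.09 to 5.63 log2 CPM for the row listed as C1qa (ENSRNOG00000012807) and went from 2.94 to 3.27 for Itgam and from 3.56 to 3.28 for the row listed as Cd74 (ENSRNOG00000018735), each with wide overlap between the groups.

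**Figure D1:**
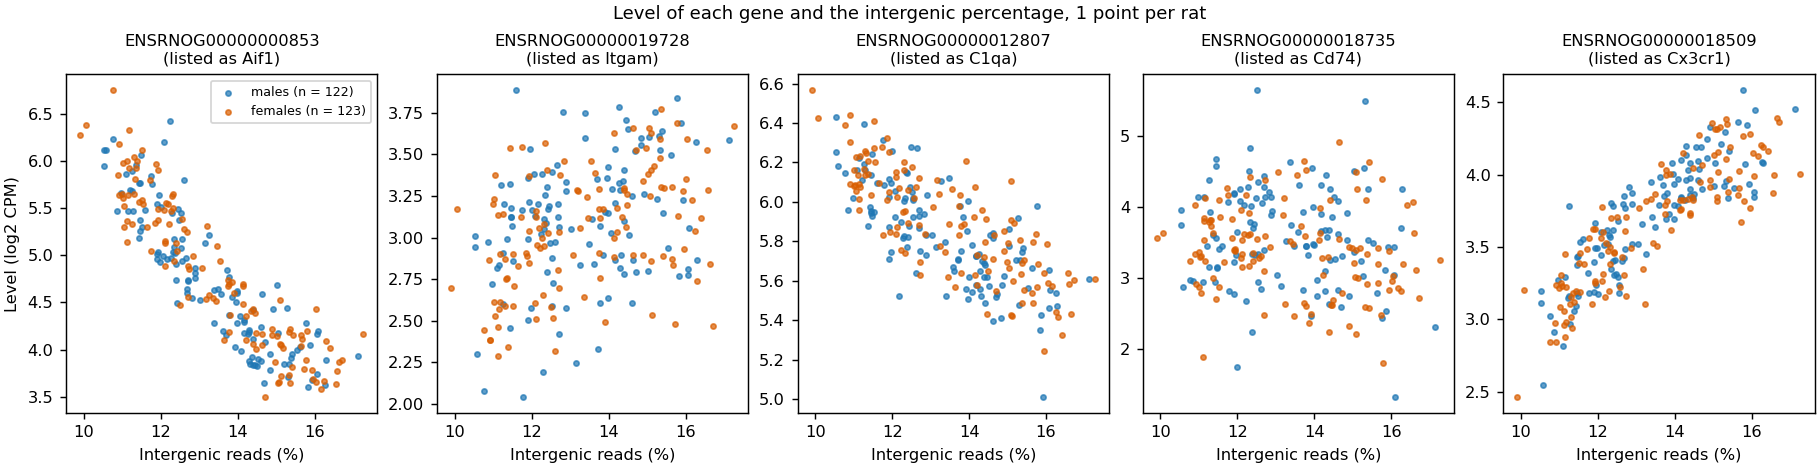
Level (log2 CPM, vertical axis) of each of the 5 genes against the intergenic percentage (horizontal axis), with 1 point per rat, 122 males in blue and 123 females in orange. The row listed as Aif1 falls along the whole axis and that listed as Cx3cr1 rises, while Itgam and the row listed as Cd74 stay scattered.

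Tested with limma-voom beside the other covariates, the slope on the intergenic percentage passed a false discovery rate (FDR) of 0.10 in 4 of the 5 genes, against 77.3% of all genes tested, so this count is near the background. ENSRNOG00000000853 (Aif1) fell by 0.21 ± 0.013 (SE) log2 CPM per percentage point (limma-voom, adjusted p = 5.93e-39). ENSRNOG00000012807 (C1qa) fell by 0.094 ± 0.010 (limma-voom, adjusted p = 3.87e-17) and ENSRNOG00000018735 (Cd74) fell by 0.17 ± 0.042 (limma-voom, adjusted p = 0.000198), though it was not called in batch 3 alone (adjusted p = 0.183). ENSRNOG00000018509 (Cx3cr1) rose by 0.15 ± 0.012 (limma-voom, adjusted p = 3.12e-26). Among all genes tested, 38.9% were called as rising and 38.4% as falling. Itgam had a slope of 0.031 ± 0.023, which was not called (limma-voom, adjusted p = 0.21). In 3 of 14 alternative settings it was called by limma-voom. These were sex as the only covariate (slope 0.080, adjusted p = 7.49e-09), family added to the model (0.056, adjusted p = 0.011) and date of death added (0.049, adjusted p = 0.026). Of the 14 of 28 listed microglia and macrophage genes that could be matched by ID, 6 were called as rising and 6 as falling, with a median slope of -0.017 log2 CPM per percentage point against -0.00064 over all genes. Among those with high levels, Tyrobp, an adaptor of microglial receptors, fell by 0.23, Coro1a, an actin regulator of blood cells, fell by 0.11, and Slco2b1, an organic anion transporter, rose by 0.12.

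The 5 genes were then compared with each other over rats. As measured, 6 of the 10 pairs were correlated past an adjusted p of 0.05 (Pearson's r, permutation test with 100000 resamples, two-sided, Benjamini-Hochberg over the 10 pairs), 2 positively and 4 negatively. The rows listed as Aif1 and C1qa rose and fell together, with r = 0.81 and rho = 0.83. Both ran opposite to the row listed as Cx3cr1, with r = -0.83 and rho = -0.85 for Aif1 and r = -0.72 and rho = -0.74 for C1qa. Itgam was correlated with Cx3cr1 (r = 0.44, rho = 0.40), with Aif1 (r = -0.42, rho = -0.41) and with C1qa (r = -0.31, rho = -0.30). The permutation p of each of these 6 was 1e-05, the smallest that the resamples can give, and the adjusted p was 1.67e-05, for r as for rho. The 4 pairs with the row listed as Cd74 had r between -0.093 and 0.10, with adjusted p from 0.15 to 0.26. With DESeq2 size factors, 2 of these 4 passed, C1qa with Cd74 (r = 0.13, adjusted p = 0.0457) and Cx3cr1 with Cd74 (r = -0.15, adjusted p = 0.0219), and in batch 3 alone C1qa with Cd74 had r = 0.44 (adjusted p = 0.0015).

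These correlations kept their sign in each sex and in each of the 3 sequencing batches. The r of Aif1 and C1qa was 0.81 in batch 1, 0.81 in batch 2 and 0.62 in batch 3, and that of Aif1 and Cx3cr1 was -0.84, -0.87 and -0.66. Leaving out the 2 rats most distant from the median gave 0.82 and -0.84. The r of C1qa and Cx3cr1 was -0.70, -0.72 and -0.57 in the 3 batches, and that of Itgam and Cx3cr1 was 0.52, 0.25 and 0.46. The r of Aif1 and Itgam was -0.44, -0.28 and -0.39. That of Itgam and C1qa was -0.18 in batch 2, with an adjusted p of 0.14.

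Once the covariates (LocoScore, sex, ribosomal and intergenic percentages, dissector, PavCA experience and batch) were removed, 2 of the 10 pairs were left. The rows listed as Aif1 and C1qa kept r = 0.30 and rho = 0.31 (permutation p = 1e-05, adjusted p = 0.0001). Itgam and the row listed as Cx3cr1 kept r = 0.22 and rho = 0.20 (permutation p = 0.00049 for r and 0.00196 for rho, adjusted p = 0.00245 and 0.0098). The r of Aif1 and Cx3cr1 went from -0.83 to -0.021, with an adjusted p of 0.83, and that of Itgam and C1qa turned from -0.31 to 0.055, with an adjusted p of 0.49. The first pair had r = 0.29 and the second 0.22 when the 2 most distant rats were left out. The first was 0.31 in males and 0.29 in females, and 0.37, 0.31 and 0.17 in batches 1, 2 and 3, where it did not pass in batch 3 (adjusted p = 0.45). The second passed in males (r = 0.26, adjusted p = 0.0185), while females gave r = 0.18 with an adjusted p of 0.26. It was 0.41 in batch 1, but 0.027 in batch 2 and 0.20 in batch 3, with adjusted p of 0.79 and 0.37 there. With family and date of death also removed, 4 pairs passed by r, all positive, and 2 of them by rho, Aif1 with C1qa and Itgam with Cd74. The latter reached r = 0.20 (permutation p = 0.00199, adjusted p = 0.00995) and rho = 0.19 (adjusted p = 0.0133).

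**Figure D2:**
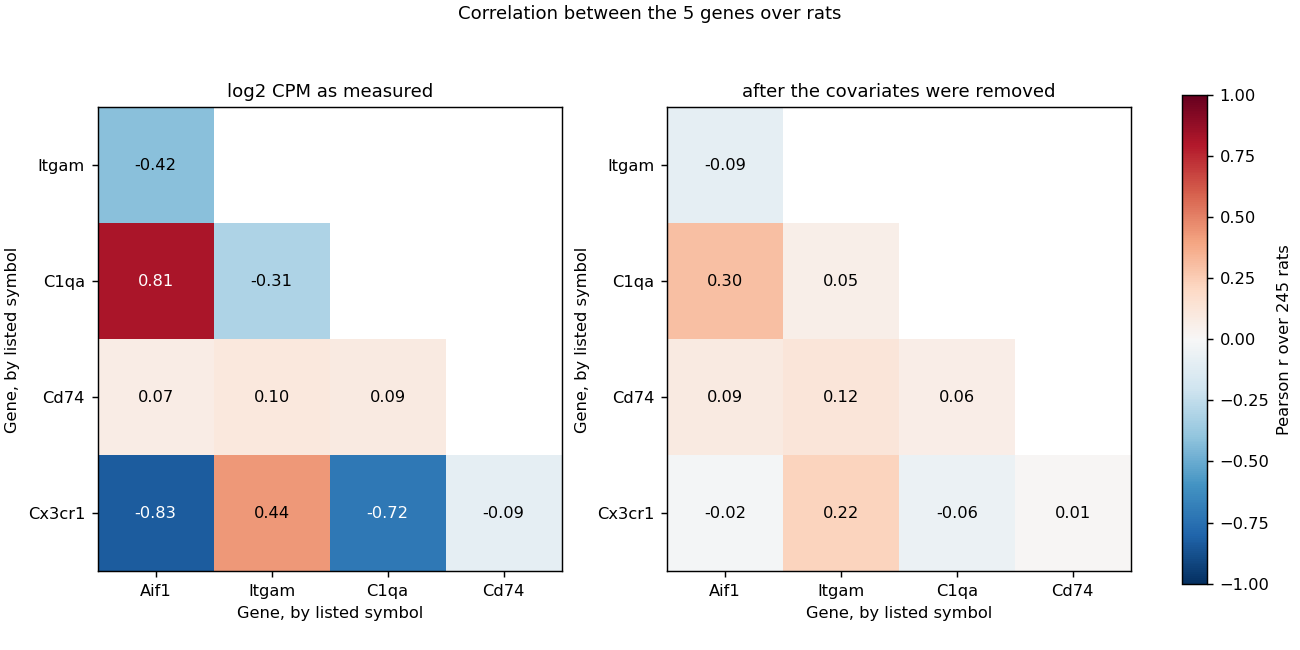
Pearson r over 245 rats for each pair of the 5 genes (both axes, named by listed symbol), with log2 CPM as measured on the left and after removal of the covariates on the right. The strong blue and red cells on the left (r from -0.83 to 0.81) fade on the right, where the largest is 0.30 for Aif1 and C1qa.

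To see which other genes each one resembled, r after removal of the covariates was computed with all 19447 other genes tested, over the same 245 rats, as a description without a test. ENSRNOG00000012807 (C1qa) was most like ENSRNOG00000012749 (r = 0.71), ENSRNOG00000012804 (0.68) and ENSRNOG00000021157 (0.53). Among the matched microglia genes, Tyrobp stood at place 105 for it (r = 0.36). ENSRNOG00000000853 (Aif1) was most like ENSRNOG00000026260 (0.73), ENSRNOG00000001611 (0.72) and ENSRNOG00000018320 (0.72), 3 genes with which it also shared r of 0.98 before the covariates were removed. Among the genes like it, the row listed as C1qa stood at place 1709, and Tyrobp at place 441 (r = 0.55).

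Itgam had no close companion. Its highest r values were 0.40 with ENSRNOG00000042848, 0.37 with ENSRNOG00000001224 and 0.35 with ENSRNOG00000018414. At place 289 for Itgam stood the row listed as Cx3cr1, with r = 0.22, while Itgam stood at place 4060 for the row listed as Cx3cr1. For ENSRNOG00000018509 (Cx3cr1) the most alike were ENSRNOG00000000699 (0.62), ENSRNOG00000019799 (0.61) and ENSRNOG00000001465 (0.60). It was positively correlated with all 4 matched neuron markers, Slc17a7 (0.47), the vesicular glutamate transporter, Syt7 (0.50), a synaptotagmin, Grik5 (0.47), a kainate receptor subunit, and Prrt2 (0.18), a presynaptic protein. Of all genes 5% lay above 0.45 for it, and Slco2b1, of the microglia list, had r = 0.39. The rows listed as Aif1 and C1qa had negative r with all 4, with medians of -0.20 and -0.28. These 4 markers themselves rose with the intergenic percentage, with a median slope of 0.23 log2 CPM per percentage point. That measure was among the covariates removed, as a linear term, before these r values were computed. Any part of it beyond a linear term was not tested.

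ENSRNOG00000018735 (Cd74) had the closest companions of the 5. It followed ENSRNOG00000000451 and ENSRNOG00000032844 with r = 0.93 each and ENSRNOG00000033215 with r = 0.80. It also rose and fell with the 4 matched of 6 listed markers of choroid plexus and meninges, with r of 0.70 for Igf2, a growth factor made there, 0.65 for Slc22a8 and 0.44 for Slc22a6, which carry organic anions, and 0.54 for Folr1, a folate receptor. Igf2 was at place 7 and Slc22a8 at place 17 of 19447 genes. The median r of these 4 was 0.60, against -0.0040 over all genes, of which 5% lay above 0.35. The other 4 genes of the 5 had median r between -0.086 and 0.068 with the same markers. The summed level of the 4 markers ran from 33.2 over 176 to 638 CPM, each was read in all 245 rats, and none was at 0.

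With the mean log2 CPM of these 4 markers added as a covariate, a setting chosen after the data were seen, the SD of ENSRNOG00000018735 (Cd74) fell from 0.64 to 0.45 log2 CPM, and 50.2% of the variance left by the other covariates went with them. For the other 4 genes this share was between 0.029% and 1.02%. The slope of the row listed as Cd74 on the intergenic percentage was then 0.0088 log2 CPM per percentage point and no longer called (limma-voom, adjusted p = 0.81). With the 14 matched microglia and macrophage genes the row listed as Cd74 had a median r of 0.10, and those of the others were 0.13 for Aif1, 0.11 for Itgam, 0.095 for C1qa and 0.050 for Cx3cr1. Of these 14 genes 9 to 12 had positive r, with each of the 5.

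**Figure D3:**
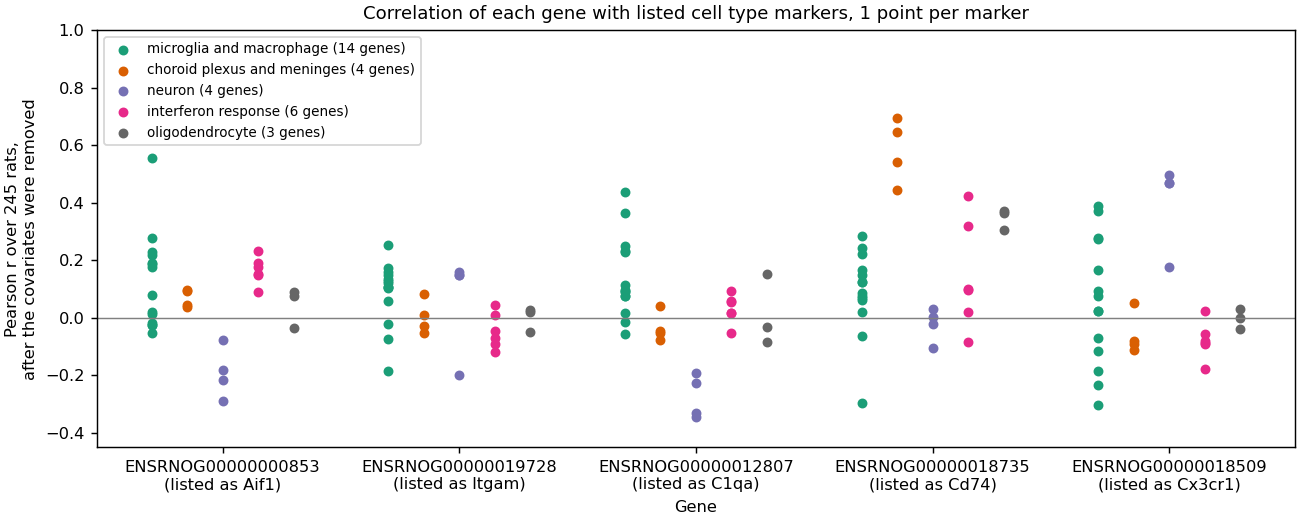
Pearson r over 245 rats, after removal of the covariates (vertical axis), of each of the 5 genes (horizontal axis) with the genes of 5 marker lists, 1 point per marker and 1 color per list. The 4 markers of choroid plexus and meninges sit between 0.44 and 0.70 for the row listed as Cd74, and 3 of the 4 neuron markers between 0.47 and 0.50 for that listed as Cx3cr1.

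Families were compared with a moderated F test of the 12 families in limma-voom, beside the same covariates. Of the 5 genes, 4 differed among families at the FDR of 0.10, against 56.3% of all genes. Itgam had the highest F of the 5 (F = 8.09, adjusted p = 6.17e-10) and ranked 203 of 19448 genes by p. The rows listed as Aif1 (F = 3.43, adjusted p = 0.000903), C1qa (F = 3.33, adjusted p = 0.00124) and Cd74 (F = 2.15, adjusted p = 0.0386) also passed, and that listed as Cx3cr1 did not (F = 1.29, adjusted p = 0.317). Of the variance left by the covariates, family accounted for 28.2% for Itgam, 14.0% for C1qa, 13.3% for Aif1, 9.52% for Cd74 and 6.75% for Cx3cr1. Any split of the rats into 12 groups takes up some variance, and these shares are not adjusted for it. Among the matched microglia and macrophage genes, 9 of 14 were called.

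Family means of Itgam were lowest in families 3 (2.78), 12 (2.85), 4 (2.88) and 2 (2.92 log2 CPM) and highest in family 7 (3.36). In family 3 its level lay between 2.04 and 3.41 with a median of 2.83 log2 CPM (mean 2.78 ± 0.38 SD, n = 22). In family 7 it lay between 2.87 and 3.79 with a median of 3.33 (mean 3.36 ± 0.29 SD, n = 21). The families overlapped, with a difference of means wider than the SD within either. After removal of the covariates the mean of family 3 was -0.33, that of family 4 -0.24 and that of family 2 -0.22 log2 CPM, and the other 9 lay between -0.019 and 0.22.

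The levels of Itgam in male and female rats of a family were then set side by side. The 12 males of family 3 had a mean of 2.80 ± 0.45 log2 CPM of Itgam (SD) and its 10 females 2.76 ± 0.31, while the 12 males of family 7 had 3.37 ± 0.33 and its 9 females 3.35 ± 0.24. After removal of the covariates, male and female means of Itgam were on the same side of 0 in 10 of 12 families, as they were in 11 for the row listed as Cd74, 7 for Aif1, 6 for C1qa and 5 for Cx3cr1. These counts carry no test, and how often all genes tested reach them was not counted. Tested apart, Itgam differed among families in males (F = 5.68, adjusted p = 1.17e-05, limma-voom) and in females (F = 4.20, adjusted p = 0.00231, limma-voom). Listed as Aif1, ENSRNOG00000000853 passed in males (adjusted p = 0.00863) and not in females (0.286), and so did that listed as C1qa (0.000143 and 0.367), a difference between the sexes that was not tested. That listed as Cd74 passed in neither (0.421 and 0.308).

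**Figure D4:**
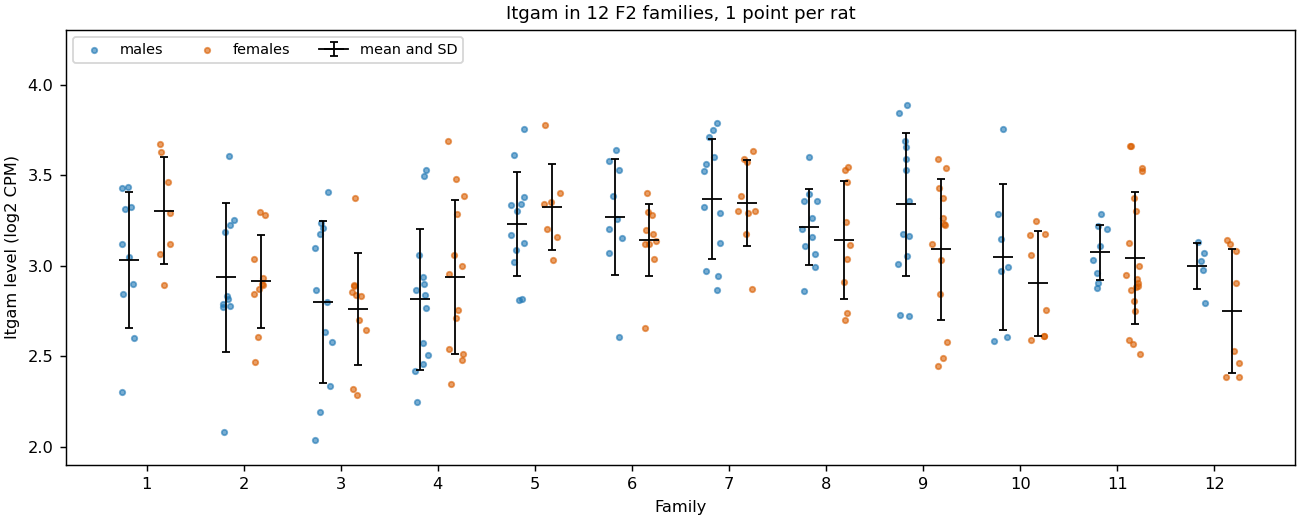
Itgam level (log2 CPM, vertical axis) by family (horizontal axis), with 1 point per rat, males in blue, females in orange, and the mean and SD of each sex in black. Families 2, 3 and 4 and the females of family 12 lie low, and family 7 lies high (mean 3.36 against 2.78 in family 3).

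The other called genes had lower F values for family than Itgam. As measured, the mean of ENSRNOG00000000853 (Aif1) was highest in family 12, at 5.69 ± 0.44 log2 CPM (SD, n = 13), and lowest in family 7, at 4.42 ± 0.66 (n = 21), and family 12 also had a lower mean intergenic percentage (11.7% ± 0.60) than family 7 (13.7% ± 1.44). After removal of the covariates its family means spanned -0.14 (family 8) to 0.074 log2 CPM (family 3). For ENSRNOG00000012807 (C1qa) they spanned -0.12 (family 8) to 0.095 (family 1). For ENSRNOG00000018735 (Cd74) the span was wider, from -0.31 in family 5 to 0.23 in families 8 and 11, about as wide as that of Itgam. Its SD within families was 0.51 to 0.83 log2 CPM.

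Within sequencing batches the family difference of Itgam was called in batch 1 (F = 6.79, adjusted p = 3.04e-05) and batch 2 (F = 4.10, adjusted p = 0.00478) but not in batch 3 (F = 0.54, adjusted p = 0.912), which holds 56 of the 245 rats, 2 of them from family 2 and none from families 3, 5 and 7. ENSRNOG00000000853 (Aif1) was called in batch 1 alone (adjusted p = 0.0101), and those listed as C1qa and Cd74 in none of the 3. For family, limma-voom called 0 of the 4 choroid plexus and meninges markers, with unadjusted p from 0.0897 to 0.491 (0 under 0.05), and with their mean added the row listed as Cd74 had F = 3.18 (adjusted p = 0.00179).

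Dates of death within sex were called for 1 of the 5 genes, Itgam (F = 7.65, adjusted p = 3.42e-06, limma-voom), against 41.1% of all genes. Among the males its mean was 2.95 ± 0.35 log2 CPM (SD, n = 17) on December 9, 2.86 ± 0.40 (n = 28) on December 10 and 3.30 ± 0.32 (n = 55) on December 11, so the last of these stood higher. On December 4, with 3 males, the Itgam values were 2.60, 3.43 and 3.43 log2 CPM. Female means were 3.01 ± 0.32 (n = 9), 3.00 ± 0.36 (n = 57) and 3.10 ± 0.37 (n = 57) on December 13, 17 and 18, and dates were not called in females alone (F = 0.30, adjusted p = 0.872). In males alone they were (F = 11.8, adjusted p = 1.61e-07). Within batches, dates were called for Itgam in batch 1 (adjusted p = 0.00746) and batch 2 (0.0264) and not in batch 3 (0.698).

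Family and date were partly the same grouping. The 28 males of December 10 came from 3 families, 3, 4 and 5, and the 55 of December 11 from 6 families. With family added to the model, date of death was no longer called for Itgam (F = 1.82, adjusted p = 0.248), and with date added, family still was (F = 4.20, adjusted p = 0.000198). The family call of the row listed as Cd74 was lost with date added (adjusted p = 0.105), while those of Aif1 (0.000957) and C1qa (0.00304) were not. ENSRNOG00000000853 (Aif1) missed the threshold for date (F = 2.11, adjusted p = 0.103) and passed it with family added (F = 2.63, adjusted p = 0.0816). Those listed as C1qa, Cd74 and Cx3cr1 had adjusted p of 0.114, 0.283 and 0.241 for date. With the choroid plexus and meninges markers added, the row listed as Cd74 had F = 3.54 (adjusted p = 0.00767).

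None of the 5 genes was called for any of the 5 behavioral measures. LocoScore counts the beams a rat breaks while it explores a new enclosure, and its slopes ran from -0.012 ± 0.014 (SE) log2 CPM per 100 beam breaks in ENSRNOG00000018735 (Cd74) to 0.0029 ± 0.0076 in Itgam (n = 245). limma-voom called 0 of the 5, against 0.0103% of all genes, and 0 of the 5 had an unadjusted p under 0.05, and edgeR and DESeq2 called 0 as well. The 95% interval of the slope per 100 beam breaks ran from -0.014 to 0.0029 for Aif1, from -0.012 to 0.018 for Itgam, from -0.0086 to 0.0048 for C1qa, from -0.039 to 0.016 for Cd74 and from -0.0074 to 0.0087 for Cx3cr1.

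The elevated plus maze (EPM) measures anxiety-like behavior by the time a rat spends in open arms. For open arm time the slope of ENSRNOG00000012807 (C1qa) was -0.021 ± 0.0097 log2 CPM per 10 percentage points, with an unadjusted p of 0.0309 in limma-voom and an adjusted p of 0.9996. No other gene of the 5 was under 0.05 for any behavior. By limma-voom 0% of all genes and 0 of the 5 were called for open arms, and edgeR called 0 of the 5, with slopes from -0.021 in Aif1 and C1qa to 0.040 ± 0.040 in Cd74. Slopes for EPM distance lay between -0.0031 ± 0.0024 (C1qa) and 0.010 ± 0.0098 (Cd74) log2 CPM per 100 cm (n = 244, 1 rat above 5000 cm left out), and those for time immobile between -0.011 ± 0.010 (Itgam) and 0.0020 ± 0.0057 (Aif1) per 10 s. Both had 0 of 5 called by limma-voom and by edgeR, 0% of all genes called by limma-voom, and 0 of 5 with an unadjusted p under 0.05.

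The PavCA Index, recorded in 205 rats, is positive for rats that approach the cue (sign-tracking) and negative for those that approach the food site (goal-tracking). Slopes per unit of the index were 0.047 ± 0.027 log2 CPM for ENSRNOG00000000853 (Aif1), 0.026 ± 0.049 for Itgam, 0.017 ± 0.021 for ENSRNOG00000012807 (C1qa), 0.063 ± 0.090 for ENSRNOG00000018735 (Cd74) and -0.011 ± 0.025 for ENSRNOG00000018509 (Cx3cr1). The lowest unadjusted p was 0.0842, for Aif1, and 0 of 5 were called by limma-voom or by edgeR, against 0.00514% of all genes. The test of a slope that differs between the sexes called none of the 5 for any of the 5 measures by limma-voom or by edgeR (limma-voom called 0.329% of all genes for LocoScore, 0.00514% for time immobile and 0% for the other 3), and 1 of the 25 tests had an unadjusted p under 0.05, that of C1qa for time immobile (p = 0.0408, adjusted p = 0.312).

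**Figure D5:**
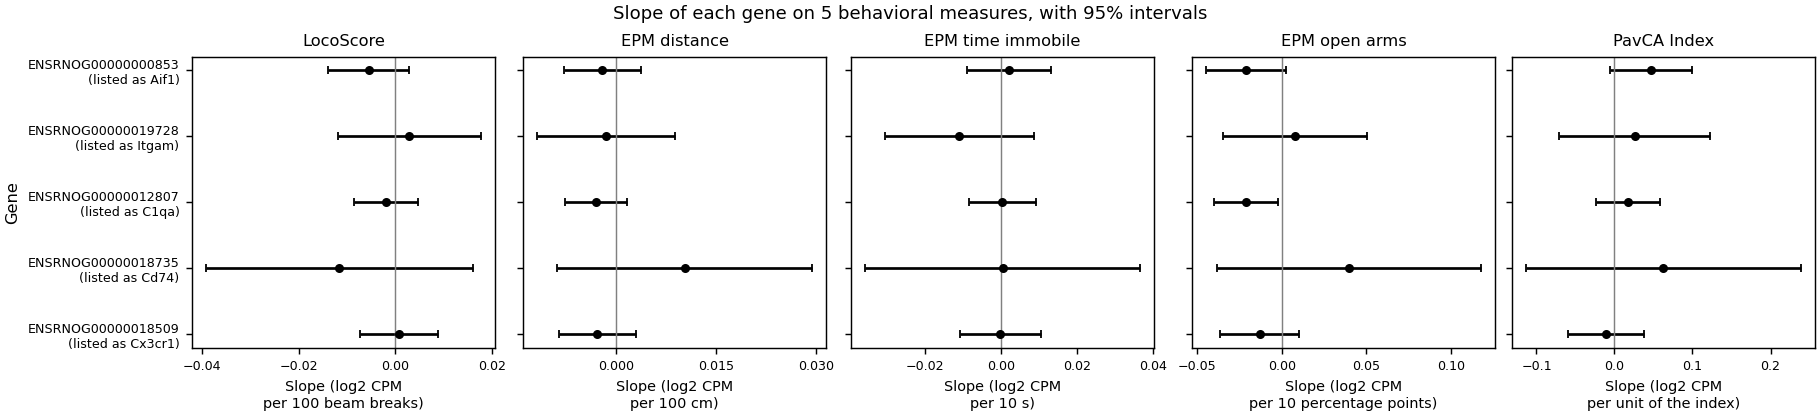
Slope of each gene (log2 CPM per unit of the measure, horizontal axis, with a scale of its own in each panel) for 5 behavioral measures, with bars for the 95% interval. Of the 25 intervals 1 leaves out 0, that of the row listed as C1qa for EPM open arms (-0.021 per 10 percentage points), and the intervals of the row listed as Cd74 are the widest in all 5 panels.

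Sex, training and hippocampal side gave small differences. Females and males had medians of 4.69 and 4.64 log2 CPM for Aif1, 3.06 and 3.12 for Itgam, 5.89 and 5.83 for C1qa, 3.38 and 3.55 for Cd74 and 3.71 and 3.78 for Cx3cr1, and the sexes overlapped over nearly the whole range in each. For sex 0 of 5 were called by limma-voom, edgeR or DESeq2, against 9.08% of all genes (4.04% higher and 5.04% lower in females). The female minus male difference of ENSRNOG00000012807 (C1qa), 0.049 ± 0.021 log2 CPM, had an unadjusted p of 0.0189 (adjusted p = 0.151) and was called with family added (0.052, adjusted p = 0.0864). The difference of ENSRNOG00000018735 (Cd74) was -0.11 ± 0.084 (adjusted p = 0.498), and -0.029 with the choroid plexus and meninges markers added. The summed level of those markers had a median of 198 CPM in males (range 38.4 to 469) and 161 CPM in females (range 33.2 to 638).

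PavCA training likewise had 0 of 5 called by limma-voom, edgeR or DESeq2, against 9.19% of all genes (5.35% higher and 3.85% lower in trained rats), with 1 of 5 under an unadjusted p of 0.05. The trained minus untrained difference of ENSRNOG00000012807 (C1qa) was 0.074 ± 0.035 log2 CPM (p = 0.0334, adjusted p = 0.207). With date of death added it was 0.14 and called (adjusted p = 0.0481), and only 3 of the 9 dates hold both trained and untrained rats. Within batches the C1qa difference was -0.012, 0.16 and 0.15 log2 CPM in batches 1, 2 and 3, with adjusted p of 0.984, 0.744 and 0.126. The other 4 genes had adjusted p from 0.562 to 0.991. For hippocampal side 0 of 5 were called by limma-voom or edgeR and 0 had an unadjusted p under 0.05, with 0% of all genes called, and right minus left differences lay between -0.025 (Cd74) and 0.038 (Itgam) log2 CPM.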

How the data were processed

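Hippocampal polyA RNA was sequenced from 250 F2 rats, and 245 libraries without a failed quality control label were used. According to the study's methods and the labels, the authors aligned reads with STAR 2.7.3a to Rnor6 and counted unique hits per gene of Ensembl 103, by strand, with Subread 2.0.0. The deposited values are raw counts, without normalization. Groups come from the labels. The intergenic label is damaged and was recomputed by subtracting mRNA, intronic and ribosomal fractions from the whole, and breaks in the title numbers gave the 3 sequencing batches.

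Counts of 19448 genes, each read in 62 or more rats (25%), were TMM-scaled and fitted with limma-voom in R 4.3.3 (limma 3.58.1, edgeR 4.0.16, DESeq2 1.42.0), following the study's model: each term beside sex, ribosomal and intergenic percentages, dissector, PavCA experience and batch, with Benjamini-Hochberg adjustment over all genes. Sex, family, date, training, side and intergenic slopes came from the LocoScore model. log2 CPM used a prior count of 2. Correlations used Python 3.11.15. Fits and correlations were tested on simulated data. The text names the 5 genes, the 3 genes most like each, and up to 4 genes per marker list by mean level, of which 1 is not reported here. The genes and lists were chosen with earlier results of these data known. Marker genes were matched only where the study's tables pair ID and symbol, which left none of 17 antigen presentation and none of 3 B cell genes. P-values set an effect or correlation against the spread between rats, and rats of a family are related. Depth (17.9 to 31.5 M counts) gave at least 50 reads for each of the 5 genes in every rat. Alternatives changed the scaling, filter, libraries, test, covariates, sex and batch.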

Additional observations from a re-analysis of the deposited data

Results flagged for a closer look

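In 1 of the 9 females that died on December 13, ENSRNOG00000000853 (Aif1) stood at 6.75 log2 CPM, apart from the other 8, which lay between 4.11 and 4.60. In the same rat ENSRNOG00000018509 (Cx3cr1) stood at 2.84 log2 CPM, against 3.35 to 3.84 in the others. Both gaps exceeded Dixon's critical value, in 15 tests of single genes in date groups of 9 or 10 rats, where chance flags about 1 test in 20. The flags came from the same rat in genes that were correlated over rats, so they are not separate events. This rat had an intergenic percentage of 10.8%, against 13.2 to 14.5% in the other 8, and 2.88% ribosomal reads, against 0.83 to 1.07%. After removal of the covariates, its Aif1 value was -0.19 log2 CPM and ranked 41 of 245 from the lowest, and its Cx3cr1 value was 0.058.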

How the results depend on the processing

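Counts of genes called, out of the 5, moved in the following settings. For family, 4 became 1 in females alone, and 2, 1 and 0 in batches 1, 2 and 3 alone. For date of death, 1 became 2 with DESeq2 size factors, with no filter, with edgeR or with the choroid plexus and meninges markers added, 4 with sex as the only covariate, 3 in males alone, and 0 in females alone or batch 3 alone. For sex, 0 became 1 with family added. For PavCA experience, 0 became 1 with date of death added and 2 with sex as the only covariate, where the difference turned to -0.39 log2 CPM for ENSRNOG00000000853 (Aif1) and 0.19 for ENSRNOG00000018509 (Cx3cr1). The intergenic slope of ENSRNOG00000018735 (Cd74) turned to 0.0088 with the choroid plexus and meninges markers added, a setting chosen after the data were seen. Correlated pairs went from 6 to 2 once the covariates were removed, with Itgam and ENSRNOG00000012807 (C1qa) turning to 0.055. After that removal the count was 4 with family and date removed too, and 1 in females, in batch 2 or in batch 3 alone, where the pair that passed in batch 3 was another (Itgam and the row listed as Cd74). The causes were not tested, though sex and batch subsets hold fewer rats. The other 159 of 179 counts stayed within 1.5 times. Of 1060 values for single genes, 19 lost and 16 gained a call, and 124 uncalled ones changed sign. No paired analysis was possible because the labels give no replicate number that pairs rats across groups. Family entered as a term only in the family test and in the settings with family added or removed. The other fits and the permutation tests treat rats of a family as independent. Over all genes, calls moved by over 1.5 times under other settings: for family from 10952 to between 204 and 5608, for date from 8000 to between 61 and 4367, for sex from 1766 to between 36 and 543, for PavCA experience from 1788 to between 14 and 4957, and for sex by LocoScore from 64 to between 0 and 746. Calls for behaviors stayed between 0 and 7, for the other sex interactions between 0 and 9 and for side between 0 and 94. Depth limits Itgam (68 reads at its lowest) and the row listed as Cd74 (50) most.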

Other observations

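After removal of the covariates, the row listed as Cd74 (ENSRNOG00000018735) was positively correlated over 245 rats with all 3 matched oligodendrocyte markers. These were Mag (0.37), Opalin (0.37) and Plekhb1 (0.30). Of the 6 interferon response genes, 5 had positive r with it, highest for Ifitm3 (0.42) and Trim21 (0.32). Over all 6 the median r was 0.098 and the lowest -0.084. The row listed as Cd74 ran opposite to both matched astrocyte markers, Ttyh1 (-0.32) and Apoe (-0.25). Apoe, a lipid carrier that microglia also make, was at place 23 for the row listed as C1qa (r = 0.41). The interferon response genes had positive r with the row listed as Aif1 in 6 of 6 (0.091 to 0.23) and with Itgam in 2 of 6. Hbb, a blood marker, had r of 0.31 with Cd74 and 0.21 with Aif1, and Lyve1, a marker of border macrophages, had r of 0.16 with Cd74. The 2 matched T cell markers had r of 0.097 (Cd6) and 0.12 (Lat) with Cd74. These values carry no test, and depth, technical measures and rats of a family are shared by all of them.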
